A study of Mus musculus with 8 samples.

Results

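The genes described here, 10 in all, carry glucose into the brown fat of the mouse, a heat-producing adipose tissue (BAT), and on through glycolysis. They are the insulin-responsive glucose transporter Slc2a4, the hexokinases Hk1 and Hk2, the glycolytic enzymes Pfkl, Aldoa, Gapdh, Pgk1, Pkm and Ldha, and Mlxipl, which encodes the glucose-sensing transcription factor ChREBP. They were chosen by name from the 31053 genes of the count table, and all 10 held enough counts to be among the 9264 genes tested. BAT of 8-week-old male wild-type (WT) C57BL6/J mice was compared with BAT of 8-week-old male db/db mice, named B6.BKS(D)-Leprdb/J in the methods of the study. The db/db mice carry a mutation of the leptin receptor gene Lepr, overeat and become obese. There were 4 mice per genotype, collected after a fast, and 1 bulk RNA-seq library per mouse. The mutation is present in every cell of the body. The sources of the study differ on the supplier of the WT mice and do not say if they were littermates of the db/db mice. Genotype and any difference in origin or strain background cannot be told apart.

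The libraries held 2374079 to 2615009 counts in WT and 2382722 to 3240074 in db/db, so that 3 counts, taken as the detection floor, corresponded to 0.902 to 1.33 CPM (counts per 1000000 counts after TMM scaling). Lepr was listed at 0 counts in all 8 libraries and could not check the genotype at this depth. The labels name the stromal vascular fraction as cell type beside BAT as tissue, yet the 6 adipocyte markers examined were present in every library, with a geometric mean of 762 to 999 CPM in WT and 899 to 1088 CPM in db/db. The geometric mean of 25 skeletal muscle genes lay between 10.2 and 46.8 CPM in the WT libraries and between 53.1 and 311 CPM in the db/db libraries, and this spread is followed through the results below.

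Glucose enters adipocytes and muscle fibres mainly through GLUT4, the product of Slc2a4, which insulin brings to the cell surface, and hexokinase traps it in the cell as a sugar phosphate. The glycolytic enzymes then turn it into pyruvate, which is either oxidised in mitochondria or reduced to lactate by lactate dehydrogenase. Active brown fat takes up much glucose and uses it for heat and as carbon for new fatty acids, a branch whose genes ChREBP switches on when sugar phosphates accumulate. Skeletal muscle runs the same pathway with several enzyme forms of its own, among them Pfkm, Pgam2, Eno3 and the glycogen phosphorylase Pygm.

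Sequence upstream of the transcription start is shown for Ldha, Hk2 and Aldoa, which fell in db/db, and for Mlxipl, because each stretch holds a short motif that regulators of this pathway are known to read. Each line gives the 250 bases before a RefSeq start (build GRCm38.p6), 5′ to 3′ on the strand of the gene. Capitals mark ACGTG on either strand, the core read by hypoxia-inducible factors, and CACGTG, the E-box read by MYC and related factors, which holds ACGTG on both strands.
Ldha, chr7:46845554-46845803, plus strand: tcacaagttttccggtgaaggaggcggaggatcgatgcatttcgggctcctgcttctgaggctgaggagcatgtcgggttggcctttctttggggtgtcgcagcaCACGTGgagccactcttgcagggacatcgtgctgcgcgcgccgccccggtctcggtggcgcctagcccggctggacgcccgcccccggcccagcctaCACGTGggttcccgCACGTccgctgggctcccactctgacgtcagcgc
Hk2, chr6:82774455-82774704, minus strand: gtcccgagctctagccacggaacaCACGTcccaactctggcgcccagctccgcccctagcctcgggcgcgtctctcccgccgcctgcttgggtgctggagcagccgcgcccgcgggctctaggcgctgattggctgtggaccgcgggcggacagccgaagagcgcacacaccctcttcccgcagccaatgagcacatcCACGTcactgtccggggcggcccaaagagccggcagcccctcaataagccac
Aldoa, chr7:126799255-126799504, minus strand: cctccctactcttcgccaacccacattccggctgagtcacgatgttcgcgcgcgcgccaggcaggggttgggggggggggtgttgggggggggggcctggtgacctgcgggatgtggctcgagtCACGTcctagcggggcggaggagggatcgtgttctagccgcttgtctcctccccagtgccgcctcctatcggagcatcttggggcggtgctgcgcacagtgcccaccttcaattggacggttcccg
Mlxipl, chr5:135089640-135089889, plus strand: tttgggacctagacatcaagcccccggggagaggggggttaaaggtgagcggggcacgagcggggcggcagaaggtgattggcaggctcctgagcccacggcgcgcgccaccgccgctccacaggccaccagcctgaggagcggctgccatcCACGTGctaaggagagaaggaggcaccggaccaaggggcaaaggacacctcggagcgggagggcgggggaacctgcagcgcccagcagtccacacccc

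Of the 10 genes, 9 had entries in the RefSeq table, Slc2a4 being the exception, with 15 windows of 300 bases between them (250 before and 50 after a start). CACGTG occurred in windows of 2 of the 9 genes, Ldha and Mlxipl, against 8.09% of 27025 genes and 7.15% of all 32851 windows. In Ldha it began 145 and 48 bases before the start shown, and in Mlxipl 98 bases before the upstream one of its starts. The window of the other Ldha start held neither motif, and the bases just after the Ldha start shown were found in none of the GENCODE M21 transcripts of the gene, unlike those of the other 14 windows. ACGTG on either strand occurred in 8 of the 9 genes, Pfkl being the exception, and in 9 of the 15 windows, against 21.8% of genes and 19.6% of windows. The Aldoa windows that hold it overlap and share the same site, and in Gapdh and Hk1 it lay only after the start. A gene with more windows can hold a motif more often, and the 9 genes had 15 windows against 32851 for 27025 genes. In Hk2 it began 226 and 52 bases before the start, and in Aldoa 126 bases before the start shown. ChREBP is known to read a pair of imperfect E-boxes 5 bases apart, and the exact pair of CACGTG was in 0 of all windows, so that its absence from the 15 says nothing about ChREBP. The starts of Mlxipl lay 17001 bases apart, and the counts, made per gene, do not separate the forms of ChREBP that begin there. A match of letters describes the window and was not tested as a binding site.

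In db/db BAT, 3 of the 10 genes fell, Hk2, Aldoa and Ldha, to between 0.622 and 0.743 times their WT level, and 1 rose, Hk1, by 1.79-fold. The other 6 did not pass the test, edgeR's quasi-likelihood test with Benjamini-Hochberg adjustment over all 9264 genes at a threshold of 0.05. Among all genes tested, 11.9% fell, 15.8% rose and 27.7% passed in either direction. With 1 library left out, 0 to 5 of the 10 genes were lower and 0 to 1 higher. With muscle RNA in the fit, as described below, 0 of the 10 passed. The median log2 fold change (db/db minus WT) was −0.34 over the 10 genes, with a range from −0.68 to 0.84, and 0.00664 over all genes. In 1 of the 10 genes, Ldha, the db/db libraries did not overlap the WT libraries, which was the case in 28.1% of all genes tested, 12.7% with lower values in db/db. In bulk tissue, fewer cells of a type and less RNA per cell cannot be told apart.

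**Figure D1:**
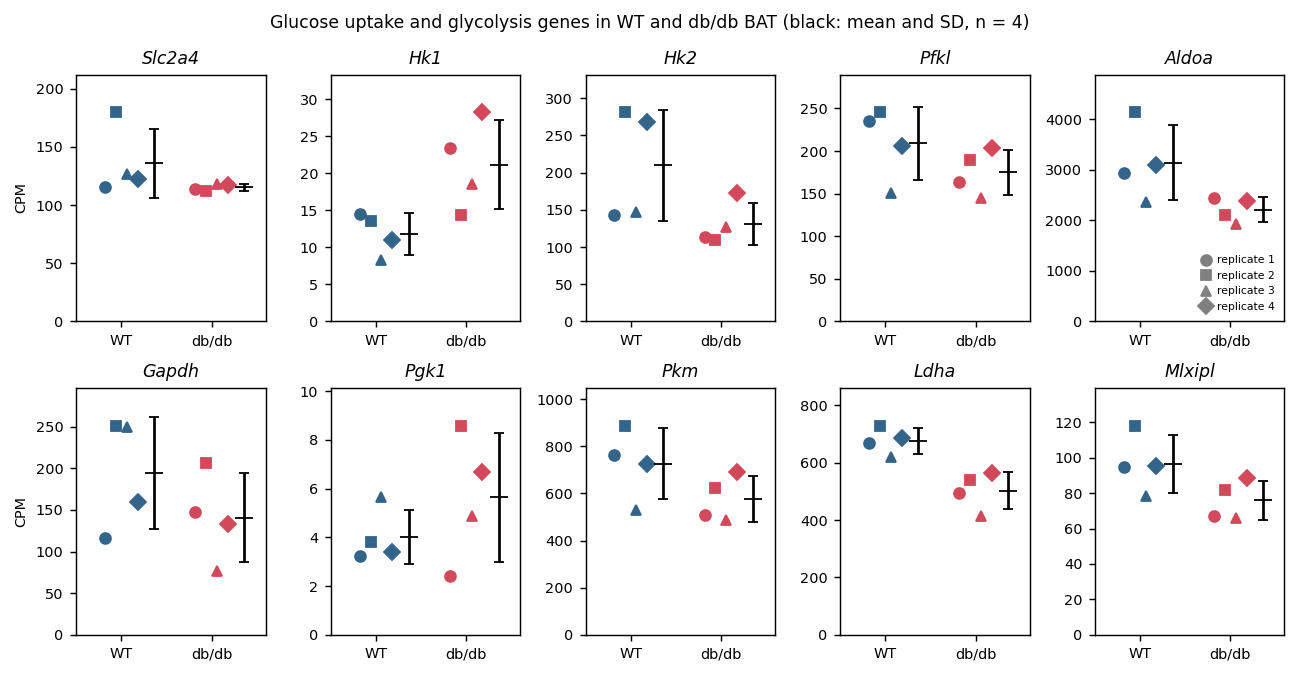
Level in CPM (linear axis from 0) of each of the 10 genes in the 4 WT libraries (blue) and the 4 db/db libraries (red), with a symbol for each replicate number and the mean and SD (n = 4) in black. The db/db libraries lie below the WT libraries in Ldha, at 416 to 564 against 620.4 to 730.1 CPM, and the genotypes overlap in the other 9 genes.

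Glucose uptake is the first step. Slc2a4 (ENSMUSG00000018566, chr11:69942539-69948188, minus strand, mm10) was measured at 115, 179.8, 127 and 122 CPM in WT and at 113, 112, 118 and 118 CPM in db/db. WT 2 stood above the other 7 libraries, which lay close together, and the genotypes overlapped. The log2 fold change was −0.24 (SE 0.147, 95% interval −0.55 to 0.07, adjusted p = 0.249 in edgeR). It was −0.09 (adjusted p = 0.703) without WT 2 and −0.33 (0.134) without WT 1. The broadly expressed basal transporter Slc2a1 (GLUT1) was far scarcer, with 11 to 25 counts per WT library and 6 to 12 per db/db library. Its levels were 4.86, 6.75, 9.39 and 4.67 CPM in WT and 3.61, 2.86, 2.66 and 2.98 CPM in db/db, without overlap. Slc2a1 fell by 1.07 log2 units (SE 0.381, adjusted p = 0.0448 in edgeR), a call close to the threshold. It did not hold in DESeq2 (adjusted p = 0.0638), in limma-voom (0.0771), in limma on the deposited log2 values (0.0582) or without a filter on low counts (0.0794), nor with WT 2 (0.0938), WT 3 (0.155) or any db/db library left out (0.0659 to 0.0986).

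Slc2a1 made up 4.56% ± 1.57 of the counts of both transporters in WT and 2.56% ± 0.373 in db/db (SD with n = 4 each). The difference had an exact two-sided permutation p of 0.0286, the smallest that 70 arrangements allow, and 0.05 after adjustment over the 7 shares compared. Of 9 listed genes for other hexose and lactate transporters and their partner Bsg, 6 were tested, and Slc2a1 was the 1 that passed. Of 10 genes that move GLUT4 to the surface or control its transcription, such as Tbc1d4, Rab10, Vamp2 and Mef2a, 9 were tested. In edgeR and in DESeq2, 0 of these 9 passed, and 3 had an unadjusted edgeR p under 0.05, with log2 fold changes from −0.28 to 0.91 and a median of −0.09.

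Hexokinase performs the next step, and its 2 main forms moved in opposite directions. Hk2 (ENSMUSG00000000628, chr6:82725025-82774454, minus strand), the insulin-regulated form of muscle and fat, was measured at 144, 281, 148 and 268 CPM in WT and at 114, 109.8, 127 and 172 CPM in db/db. WT 2 and WT 4, the WT libraries with the most muscle RNA, were high and WT 1 and WT 3 low. The highest db/db library, db/db 4, had the least muscle RNA of its genotype and lay above the 2 low WT libraries. Hk2 fell by 0.68 log2 units (SE 0.214, adjusted p = 0.0232 in edgeR), from 210.1 ± 74.6 to 131 ± 28.7 CPM (SD with n = 4 each). The call was lost without WT 2 (−0.52, adjusted p = 0.0951), WT 4 (−0.56, 0.0873), db/db 2 (−0.61, 0.0710) or db/db 3 (−0.68, 0.0524).

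Hk1 (ENSMUSG00000037012, chr10:62268855-62379908, minus strand), the housekeeping form of most tissues, was measured at 14.6, 13.5, 8.27 and 11.0 CPM in WT and at 23.5, 14.3, 18.6 and 28.3 CPM in db/db. The db/db 2 library lay within the WT range and the other db/db libraries above it. Hk1 rose by 0.84 log2 units (SE 0.261, adjusted p = 0.0226 in edgeR), and the call was lost without WT 3 (0.67, adjusted p = 0.0797), WT 4 (0.80, 0.0582), db/db 1 (0.78, 0.0515) or db/db 4 (0.67, 0.0867). Part of its exons, 1.8% of the bases, overlaps Hk1os on the other strand, and it is not stated if reads were counted by strand.

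Hk2 made up 90.8%, 95.4%, 94.7% and 96.0% of the counts of both hexokinases in the WT libraries and 82.9%, 88.5%, 87.2% and 85.9% in the db/db libraries. The shares did not overlap, with means of 94.2% ± 2.36 and 86.1% ± 2.39 (SD with n = 4 each). The exact two-sided permutation p was 0.0286, the smallest possible, and 0.05 after adjustment over 7 shares. Counting error alone gave 95% Wilson intervals of 87.5% to 93.3% in WT 1, the lowest WT library, and of 84.9% to 91.3% in db/db 2, the highest db/db library, and these 2 intervals overlap. Macrophage markers moved with Hk1: 8 of the 9 tested of 10 listed rose, and the summed level of the list was 148 to 194 CPM in WT and 688 to 1234 CPM in db/db, with 0 of the 10 at 0 counts in any library. Stromal markers moved as well, with 5 of 8 higher and 1 lower and a summed level of 711 to 819 CPM in WT and 1068 to 2075 CPM in db/db. Of the 5 red cell markers 1 rose, and their summed level was 3106 to 8715 CPM in WT, 6472 to 7024 CPM in db/db 1 to 3 and 17009 CPM in db/db 4, the library with the most Hk1. Within WT the lowest of these sums was in WT 1, the WT library with the most Hk1. The highest macrophage and stromal sums were in db/db 1, which held less Hk1 than db/db 4. All 8 stromal and all 5 red cell markers were above 0 counts in every library. The part of these cells in the Hk1 result was not tested. Hk3, the hexokinase of white blood cells, held 1, 0, 0 and 0 counts in WT and 10, 5, 2 and 1 in db/db and was too scarce to test.

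Glucose 6-phosphate isomerase, Gpi1, carries out the step between hexokinase and phosphofructokinase and is no part of the 10. Gpi1 was measured at 712, 852, 459.9 and 725 CPM in WT and at 293, 329, 386 and 410.3 CPM in db/db, without overlap, although WT 3 came close. Gpi1 fell by 0.96 log2 units (SE 0.172, adjusted p = 0.000447 in edgeR) and passed with every library left out in turn. Part of it, 11.5% of its exonic bases, overlaps Gm26762 on the other strand.

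Pfkl (ENSMUSG00000020277, chr10:77986947-78010083, minus strand), the liver form of phosphofructokinase that commits the sugar to glycolysis, was measured at 235, 246, 150.3 and 206 CPM in WT and at 164, 189, 145 and 204 CPM in db/db. The genotypes overlapped over most of their range, with a log2 fold change of −0.25 (SE 0.161, 95% interval −0.59 to 0.09, adjusted p = 0.265 in edgeR). It was −0.18 (adjusted p = 0.498) without db/db 3 and −0.40 (0.0603) without WT 3. The platelet form Pfkp had a log2 fold change of 0.39 (SE 0.216, adjusted p = 0.193 in edgeR). The muscle form Pfkm was measured at 24.3, 32.9, 34.9 and 27.6 CPM in WT and at 70.7, 30.2, 48.3 and 34.6 CPM in db/db, high in db/db 1 and db/db 3, the libraries with the most muscle RNA. Its log2 fold change was 0.62 (SE 0.236, adjusted p = 0.0596 in edgeR), and it passed without db/db 2 (0.78, 0.0198) or db/db 4 (0.73, 0.0347), the db/db libraries with the least. Without db/db 1 the value was 0.32 (adjusted p = 0.295). Part of Pfkm, 10.7% of its exonic bases, overlaps Gm26513 and Senp1. Pfkfb3, which makes the sugar bisphosphate that activates phosphofructokinase, fell by 0.87 log2 units (SE 0.125, adjusted p = 6.15e-05 in edgeR), with a mean of 413 ± 41.1 CPM in WT and 227 ± 14.2 CPM in db/db (SD with n = 4 each), without overlap. It was the 1 gene that passed among 7 tested of 11 listed regulators.

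Aldolase A splits the hexose into triose phosphates. Aldoa (ENSMUSG00000030695, chr7:126795234-126800751, minus strand), the form of muscle and most other tissues, was measured at 2946, 4139, 2357 and 3103 CPM in WT and at 2448, 2104, 1923 and 2376 CPM in db/db. WT 3 lay among the db/db libraries and WT 2 far above them. Aldoa fell by 0.50 log2 units (SE 0.165, adjusted p = 0.0297 in edgeR), from 3136 ± 742 to 2213 ± 244 CPM (SD with n = 4 each). The call was lost without WT 2 (−0.35, adjusted p = 0.128), WT 4 (−0.52, 0.0605), db/db 2 (−0.48, 0.0712) or db/db 3 (−0.45, 0.0839). A further gene annotated under the same symbol (ENSMUSG00000114515) held 0 counts in all 8 libraries. The brain form Aldoc held 1 to 5 counts in each library.

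Tpi1, triose phosphate isomerase, interconverts the products of aldolase and went the other way. It was measured at 101, 119, 118 and 99.3 CPM in WT and at 164, 191, 160.5 and 141 CPM in db/db, without overlap. Tpi1 rose by 0.58 log2 units (SE 0.136, adjusted p = 0.00354 in edgeR) and passed with every library left out in turn.

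Gapdh (ENSMUSG00000057666, chr6:125161715-125166467, minus strand), which oxidises the triose phosphate and is widely used as a reference gene, varied widely within each genotype. It was measured at 116, 252, 249.9 and 160.0 CPM in WT and at 147, 206, 76.2 and 134 CPM in db/db. Its log2 fold change was −0.46 (SE 0.256, 95% interval −1.0 to 0.08, adjusted p = 0.198 in edgeR). With 1 library left out it ran from −0.26 (adjusted p = 0.457) without db/db 3 to −0.66 (0.0626) without WT 1 and −0.70 (0.0572) without db/db 2. Of the stretches of 75 bases, the read length, in its annotated transcripts, 22.6% also occur in 118 other genes, mostly processed copies, and how reads with several matches were counted is not stated, so that its counts are uncertain.

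Pgk1 (ENSMUSG00000062070, chrX:106187100-106203699, plus strand), the first enzyme of the pathway to make ATP, held 8 to 27 counts per library. It was measured at 3.24, 3.8, 5.64 and 3.40 CPM in WT and at 2.41, 8.59, 4.88 and 6.70 CPM in db/db, with a log2 fold change of 0.48 (SE 0.423, 95% interval −0.41 to 1.37, adjusted p = 0.439 in edgeR). The value was 0.18 (adjusted p = 0.822) without db/db 2 and 0.74 (0.211) without db/db 1. Changes within that interval are not excluded at this depth. In Pgk1, 52.8% of the stretches of 75 bases are shared with 4 other genes, the highest share of the 10 genes, so that its level is uncertain as well.

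The following 2 steps have a general and a muscle form. Stretches of 75 bases shared with other genes were examined for the 10 genes only, and not for the enzymes of these steps. Pgam1 had a log2 fold change of −0.12 (SE 0.203, adjusted p = 0.709 in edgeR) and the muscle form Pgam2 rose by 2.79 log2 units (SE 0.499, adjusted p = 0.000419). Pgam2 was measured at 9.71, 5.06, 7.52 and 19.1 CPM in WT and at 168, 29.0, 53.2 and 34.2 CPM in db/db. Eno1 had a log2 fold change of −0.25 (SE 0.310, adjusted p = 0.596) and the muscle form Eno3 rose by 2.28 log2 units (SE 0.430, adjusted p = 0.000655). With 1 library left out Eno1 ran from −0.06 (0.914) without WT 2 to −0.68 (0.0877) without db/db 2, and Pgam1 from −0.00257 (0.995) without WT 1 to −0.27 (0.372) without WT 3. Eno3 was measured at 10.9, 22.4, 18.8 and 44.1 CPM in WT and at 247, 67.4, 97.5 and 51.3 CPM in db/db. Both muscle forms were highest in db/db 1 and, within WT, in WT 4. Without db/db 1 the log2 fold changes were 1.89 in Pgam2 and 1.58 in Eno3, and without WT 4 they were 3.24 and 2.73, and both genes passed with every library left out in turn.

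Pkm (ENSMUSG00000032294, chr9:59656368-59679375, plus strand), the pyruvate kinase of muscle and most other tissues, was measured at 764, 889, 528 and 726 CPM in WT and at 508, 623, 487 and 691 CPM in db/db. WT 3 lay among the db/db libraries. Its log2 fold change was −0.33 (SE 0.163, 95% interval −0.68 to 0.01, adjusted p = 0.143 in edgeR), and it ran from −0.23 (0.371) without WT 2 to −0.48 (0.0345) without WT 3, where alone it passed. The counts, made per gene, do not separate its M1 and M2 splice forms, and 15.3% of its exonic bases overlap Gm49759 on the same strand. Of its stretches of 75 bases, 17.8% are shared with 3 other genes, so that its counts are uncertain too, against 2.47% in Ldha, 0.67% in Aldoa and 0 in the remaining 5 of the 10 genes. The liver and red cell kinase Pklr was at 0 counts in all libraries.

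Lactate dehydrogenase ends the pathway, and both of its subunits fell. Ldha (ENSMUSG00000063229, chr7:46841475-46855627, plus strand), the subunit of fast muscle and glycolytic tissues, was measured at 670.1, 730.1, 620.4 and 688 CPM in WT and at 493, 539.9, 416 and 564 CPM in db/db. Every db/db library lay below every WT library. Ldha fell by 0.43 log2 units (SE 0.132, adjusted p = 0.0213 in edgeR), from 677 ± 45.4 to 503 ± 65.3 CPM (SD with n = 4 each). The adjusted p was 0.0624 without WT 2 (−0.40), 0.0520 without WT 4 (−0.43) and 0.0702 without db/db 3 (−0.35). The heart subunit Ldhb fell by 0.46 log2 units (SE 0.137, adjusted p = 0.0173 in edgeR), from 281 ± 40.1 to 204 ± 22.0 CPM (SD with n = 4 each) and without overlap, and its adjusted p was 0.0739 without WT 2. Ldhb made up 29.2% ± 1.68 of the counts of both subunits in WT and 28.9% ± 2.90 in db/db (SD with n = 4 each), a difference of −0.314 percentage points (exact two-sided permutation p = 0.886).

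Beside the falls of Hk2, Aldoa and Ldha, markers of brown adipocytes were lower: 6 of the 8 tested of 10 listed fell, and the summed level of the list was 9483 to 11248 CPM in WT and 3950 to 7043 CPM in db/db. The part of this in the falls was not tested.

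Over the 20 other glycolytic enzymes listed, 10 were tested. Of these, Pgam2, Eno3 and Tpi1 rose, Gpi1 and Ldhb fell, and 5 did not pass. The median log2 fold change of the 10 tested was 0.49, the opposite sign from that of the 10 genes described, and the 2 largest rises among them were those of the muscle forms.

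**Figure D2:**
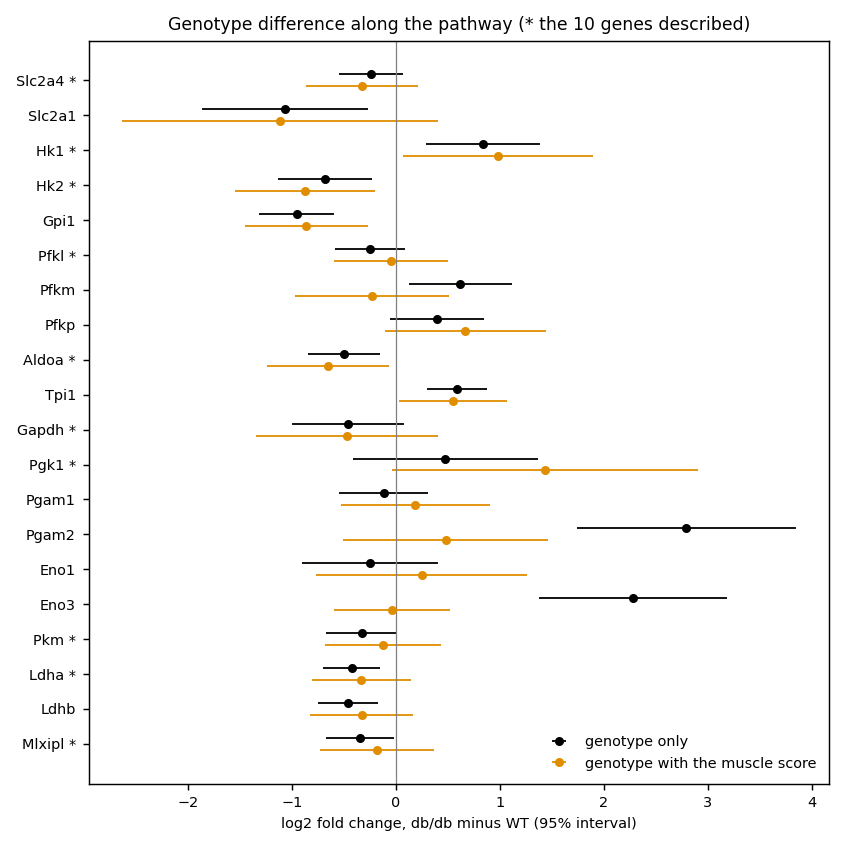
Log2 fold change (db/db minus WT) with its 95% interval for the enzymes in the order of the pathway, the 10 genes described being marked by an asterisk, from the fit with genotype alone (black) and with the skeletal muscle score added (orange). With genotype alone Pgam2 (2.79) and Eno3 (2.28) stand far right of the others, and with the score they lie at 0.48 and −0.04. The values of Hk1 and Hk2 keep their sides of 0, but neither gene passed with the score (adjusted p = 0.228 and 0.128 in edgeR).

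Muscle RNA differed between the libraries by much more than any of the 10 genes. Acta1, the actin of skeletal muscle, was measured at 109.7, 283, 135 and 395 CPM in WT and at 3977, 1063, 1788 and 813 CPM in db/db. Of 26 muscle genes listed, 25 were tested and 23 rose, with a median log2 fold change of 2.56. The summed level of the list was 572 to 2125 CPM in WT libraries and 2856 to 14856 CPM in db/db libraries, and 2 of the genes, Tnni1 and Tnnc1, were at 0 counts in WT 1. A muscle score, the mean log2 CPM of the 25 genes, was 3.35, 4.73, 4.13 and 5.55 in WT and 8.28, 6.41, 7.17 and 5.73 in db/db. The genotypes did not overlap in the score, but WT 4 and db/db 4 lay close together.

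To see which genes followed muscle RNA from library to library, the score was added to the fit beside genotype, so that its slope rests on libraries of the same genotype. Over all genes 78 passed for this slope, 0.842% of those tested, and all 78 rose with the score. The 25 genes averaged into the score are among them and had to rise with it, and of the 9239 genes outside the score 53 passed, 0.574%. Of the 10 genes, 0 passed in either direction in edgeR, and 0 had an unadjusted p under 0.05. Their slopes, in log2 CPM per unit of the score, ran from −0.41 in Pgk1 to 0.09 in Hk2, with a median of −0.05. The slope was 0.06 (SE 0.0941) in Aldoa, −0.09 (SE 0.0907) in Pkm and −0.04 (SE 0.0772) in Ldha, 3 glycolytic genes that muscle is known to express strongly. Among the muscle forms, none of them in the score, the slope was 0.90 (SE 0.0868, adjusted p = 9.75e-07) in Eno3, 0.85 (SE 0.146, adjusted p = 0.00171) in Pgam2 and 0.81 (SE 0.105, adjusted p = 5.41e-05) in Pygm. In Pfkm it was 0.32 (SE 0.112, adjusted p = 0.568). The Pgam2 slope was 0.45 (adjusted p = 0.999) without db/db 1, the library with the most muscle RNA, while those of Eno3 and Pygm passed with every library left out.

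**Figure D3:**
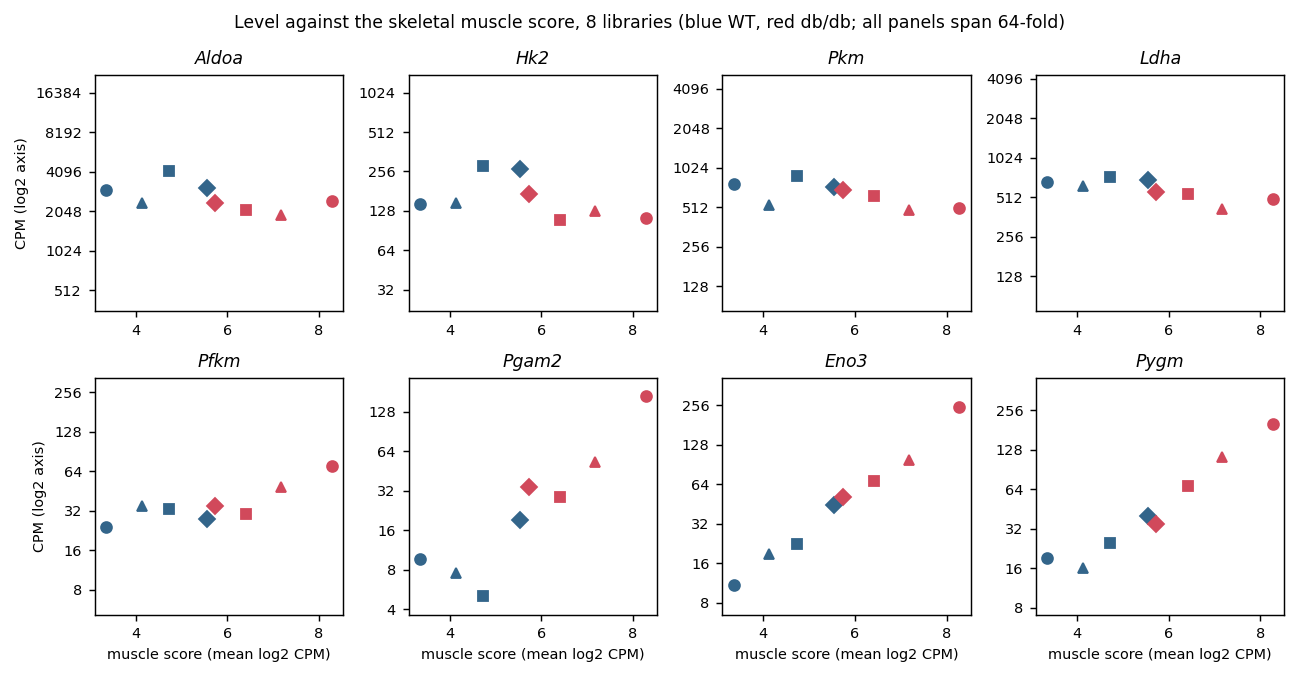
Level in CPM (log2 axis, every panel spanning the same fold) against the muscle score (mean log2 CPM of 25 muscle genes) in the 4 WT (blue) and 4 db/db (red) libraries, with a symbol for each replicate number. In the upper panels Aldoa is almost level between db/db 4 (score 5.73) and db/db 1 (score 8.28), and Hk2, Pkm and Ldha are lower in db/db 1. Within WT, Hk2 is higher in WT 2 and WT 4 (281 and 268 CPM), the libraries of higher score, than in WT 1 and WT 3 (144 and 148 CPM). In the lower panels Eno3 is higher in each library of higher score within both genotypes, Pygm within db/db, and Pgam2 is highest in db/db 1 and, within WT, in WT 4.

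With the score in the fit, 573 genes passed for genotype (6.19%, with 4.53% higher and 1.65% lower), and 0 of the 10 genes passed in edgeR, while Hk1, Hk2 and Aldoa had an unadjusted p under 0.05. Because the score differs between the genotypes, the standard errors grew, in Ldha from 0.132 to 0.230 and in Hk2 from 0.214 to 0.324. The log2 fold changes themselves kept their sign in all 10 genes but moved in size. Hk2 was at −0.88 (adjusted p = 0.128), Aldoa at −0.65 (0.206), Ldha at −0.33 (0.485) and Hk1 at 0.98 (0.228). Pfkl went from −0.25 to −0.05, Pkm from −0.33 to −0.13, Mlxipl from −0.35 to −0.18, Slc2a4 from −0.24 to −0.33, Gapdh from −0.46 to −0.47 and Pgk1 from 0.48 to 1.44 (95% interval −0.04 to 2.91). Among the muscle forms, the log2 fold change was then −0.04 in Eno3 (95% interval −0.60 to 0.52), −0.10 in Pygm (−0.79 to 0.59) and 0.48 in Pgam2. Gpi1 was at −0.86 (adjusted p = 0.0791), Tpi1 at 0.55 (0.232), Ldhb at −0.33 (0.515) and Slc2a1 at −1.11 (0.456), and these 4 genes lost their calls. Of the brown adipocyte markers 1 was then lower in place of 6. Of the stromal markers 1 was higher and 0 lower in place of 5 and 1. Of the macrophage markers 7 were higher in place of 8, and of the red cell markers 0 in place of 1.

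The shares of the muscle forms within their families do not depend on the scaling of libraries. They can depend on reads shared with other genes, which were not examined for Eno1, Eno1b, Pgam1 or the muscle forms. Pgam2 made up 24.0% ± 9.54 of the Pgam1 and Pgam2 counts in WT and 63.4% ± 17 in db/db (SD with n = 4 each; exact two-sided permutation p = 0.0286, adjusted 0.05). Eno3 made up 39.4% ± 16.3 of the enolase counts (Eno1, Eno1b and Eno3) in WT and 74.0% ± 17.1 in db/db (exact p = 0.0571, adjusted 0.08), with overlap between WT 4 and db/db 2. Pygm made up 2.26% ± 0.866 of the glycogen phosphorylase counts in WT and 13.3% ± 9.29 in db/db (exact p = 0.0286, adjusted 0.05). Pfkm made up 11.8% ± 3.66 of the phosphofructokinase counts in WT and 18.3% ± 7.11 in db/db (exact p = 0.171, adjusted 0.20). In all 4 shares db/db 1 was the highest of the 8 libraries.

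**Figure D4:**
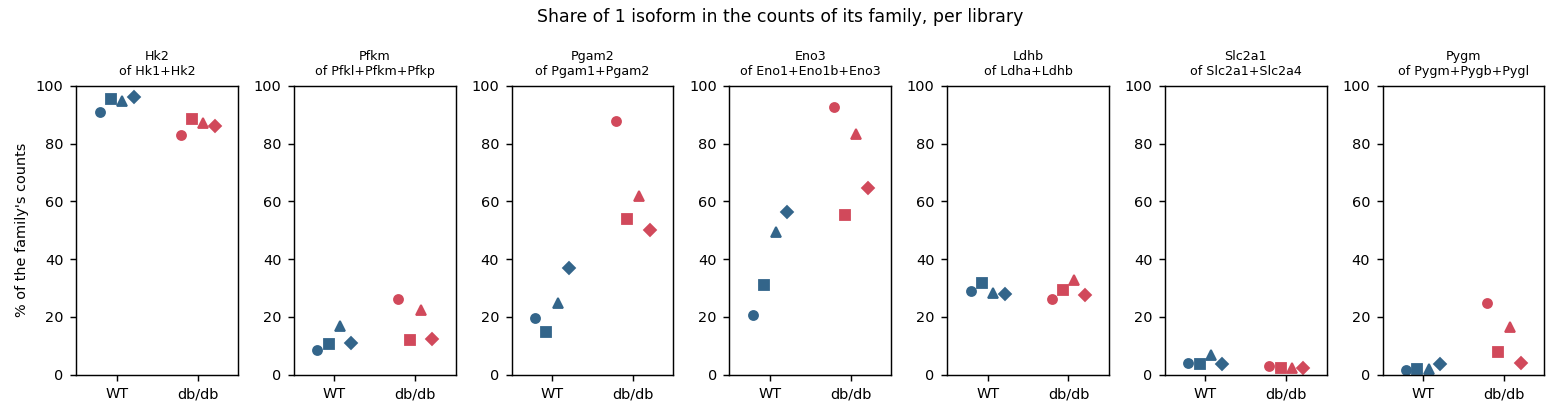
Share of 1 form in the summed counts of its family, in percent, for 7 families and each of the 4 WT (blue) and 4 db/db (red) libraries, with a symbol for each replicate number. The Hk2 share is 90.8% to 96.0% in WT and 82.9% to 88.5% in db/db, and the Pgam2, Eno3 and Pygm shares are highest in db/db 1.

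Mlxipl (ENSMUSG00000005373, chr5:135089890-135138382, plus strand), the gene of ChREBP, was measured at 94.7, 118, 78.5 and 95.1 CPM in WT and at 67.1, 81.8, 66.0 and 88.5 CPM in db/db. WT 3 lay within the db/db range and the other WT libraries above it. Its log2 fold change was −0.35 (SE 0.154, 95% interval −0.67 to −0.02, adjusted p = 0.105 in edgeR), and it ran from −0.25 (0.301) without WT 2 to −0.46 (0.0448) without WT 3, where alone it passed. Its partner Mlx had a log2 fold change of −0.76 (SE 0.376, adjusted p = 0.148), with 19.3% of its exonic bases overlapping Psmc3ip, and the related sensor Mlxip (MondoA) one of 0.01 (SE 0.368, adjusted p = 0.989), a value whose sign depends on the scaling.

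Of 10 known ChREBP targets, 8 were tested, 3 fell (Fasn, Tkt and Thrsp) and 0 rose in edgeR or in DESeq2. Of those not called, Txnip was higher and Acly and Elovl6 lower at an unadjusted edgeR p under 0.05. Fasn, the fatty acid synthase, fell by 1.77 log2 units (SE 0.270, adjusted p = 9.57e-05 in edgeR), and Tkt, transketolase of the pentose phosphate pathway, by 1.55 (SE 0.183, 7.92e-06). Thrsp, a lipogenic protein, fell by 0.71 log2 units (SE 0.176, adjusted p = 0.00551 in edgeR). With the muscle score in the fit Fasn was at −1.66 (adjusted p = 0.0162) and Tkt at −1.24 (0.00924), while Thrsp lost its call (−0.29, 0.631). Txnip, which restrains glucose uptake and is among the best-known targets, had a log2 fold change of 0.60 (SE 0.243, adjusted p = 0.0747). The target list was written from general knowledge and does not show what ChREBP bound here.

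**Figure D5:**
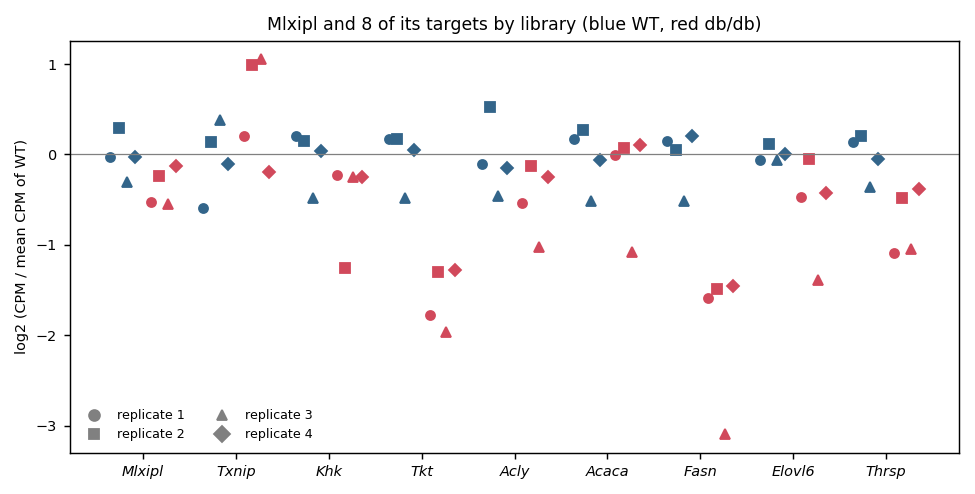
Level of Mlxipl and of 8 of its known targets in each library, as log2 of CPM over the WT mean, for the 4 WT (blue) and 4 db/db (red) libraries with a symbol for each replicate number. Fasn and Tkt lie below the WT libraries in every db/db library, and db/db 3 is the lowest db/db library in 5 of the 8 targets, with 694 CPM of Fasn against at least 1962 in the other 3.

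The db/db 3 library was the lowest of its genotype in 6 of the 10 genes, Pfkl, Aldoa, Gapdh, Pkm, Ldha and Mlxipl, and in 5 of the 8 ChREBP targets. Within WT, WT 3 was the lowest in 6 of the 10 genes and in 7 of the 8 targets, and WT 2 was the highest in 8 of the 10 genes. Neighbouring branches moved too. Of 15 glycogen genes 12 were tested, 3 rose and 6 fell, the largest fall being that of Pgm1, which links glucose 6-phosphate to glycogen (−1.13, SE 0.124, adjusted p = 3.52e-06 in edgeR), and the largest rise that of Pygm (2.06, SE 0.396, 0.000763). The Pgm1 value was −1.11 with the muscle score in the fit (adjusted p = 0.00423), while of the glycogen genes together 1 was then higher and 2 lower, and 13.6% of the exonic bases of Pgm1 overlap Itgb3bp. Of 7 pentose phosphate genes all were tested, 1 rose, Pgd (0.75, SE 0.163, adjusted p = 0.00202 in edgeR), and 3 fell, Tkt most. With the score Pgd was at 0.47 (adjusted p = 0.347), and of the 7 genes Tkt alone passed. Over all these lists of pathway genes together, 57 of 78 were tested, 7 rose and 15 fell, with a median log2 fold change of −0.15.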

How the data were processed

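BAT of 4 WT and 4 db/db mice was profiled by single-end mRNA sequencing through a commercial service. According to the methods of the study, the authors trimmed reads with bbduk, aligned them to mm10 with STAR, counted them per gene with HTSeq, and deposited the raw counts. The submitters' processing notes name Trimmomatic and HISAT2 instead, which the resource list of the study also holds. They name DESeq2 as well, as do the methods. Use of strand, molecular identifiers and reads with several matches is not given in the sources used here. The authors also deposited log2 values, which equal the log2 of the count times a constant of each library plus 1, and that constant times the DESeq2 size factor was 1 in all 8 libraries. The sample sheet was not used.

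Of 31053 Ensembl identifiers, 31011 were matched to symbols (GENCODE M21, GRCm38). Genes were filtered with filterByExpr (minimum count 10, total 15), scaled by TMM and tested for genotype, without other terms, using edgeR 4.0.16 (R 4.3.3). Replicates of a genotype differed by at least 4.20 times counting error (chi-square per degree of freedom). Intervals and the detection floor cover counting error only where they come from counts. The muscle score is the mean log2 CPM (prior count 2) of 25 muscle genes. Slopes and covariate fits used all 8 libraries. Shares were compared by exact permutation over 70 arrangements. Named are all 10 genes, their paralogs, the enzymes between them and the largest called change in each list. Some paralogs are not reported here. The genes and lists were chosen with earlier results of these data known. DESeq2 1.42.0, limma 3.58.1, 4 other scalings, 2 filters, a replicate block, the muscle score and each library left out in turn were tried as alternatives. The procedure was tested on simulated data.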

Additional observations from a re-analysis of the deposited data

Results flagged for a closer look

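In 72 groups of 4 libraries examined, 3 held a library set apart from the other 3 by Dixon's criterion, against 3.6 expected by chance. Fasn was at 694 CPM in db/db 3 and at 1960 to 2150 CPM in the other db/db libraries. The share of Slc2a1 in the counts of Slc2a1 and Slc2a4 was 6.91% in WT 3 and 3.62% to 4.04% in the other WT libraries. The share of Pygm in the glycogen phosphorylase counts was 3.55% in WT 4, the WT library with the most muscle RNA, and 1.71% to 1.92% in the others.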

How the results depend on the processing

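DESeq2, limma-voom, limma on the deposited log2 values and 4 other scalings each called 1 of the 10 genes higher and 3 lower, and no scaling moved the median of all genes by more than 0.1 on the log2 scale. Testing every gene with at least 1 count called 4 of the 10 lower, with Gapdh added (adjusted p = 0.0081), and 13 pathway genes higher in place of 7. With the muscle score as a covariate 0 of the 10 were higher and 0 lower, 573 genes passed in place of 2568, and 1 pathway gene was higher and 5 lower in place of 7 and 15; Pfkm (−0.23), Eno3 (−0.0367), Pygm (−0.10), Pgam1 (0.19) and Eno1 (0.25) changed sign there. Mlxip, near 0, changed sign under voom (−0.19), the deposited log2 values (−0.11), RLE (−0.000899), upper quartile (−0.0159), library totals (−0.0294), TMM without mitochondrially encoded and muscle genes (−0.000400), every gene tested (−0.0348) and the replicate block (−0.0499), and ran from −0.41 to 0.20 with 1 library left out. With Acta1 in place of the score, the slope was −0.0204 in Gapdh and 0.00273 in Gpi1, both of opposite sign to the main value.

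Leaving out 1 library gave 0 to 1 of the 10 genes higher and 0 to 5 lower: 0 lower without WT 2, WT 4 or db/db 3, 1 without db/db 2 and 5 without WT 3; 0 higher without WT 3, WT 4, db/db 1 or db/db 4. These fits hold fewer samples. Slopes on the score that changed sign ran from −0.0310 to 0.0880 in Slc2a4, −0.222 to 0.114 in Hk1, −0.0454 to 0.302 in Hk2, −0.173 to 0.0843 in Gapdh, −0.0655 to 0.00284 in Ldha, −0.0549 to 0.0585 in Tpi1 and −0.0820 to 0.0518 in Gpi1. Differences in share (db/db minus WT, percentage points) ran from −9.26 to −7.04 for Hk2, 28.3 to 40.7 for Eno3, −1.59 to 0.640 for Ldhb, −2.31 to −1.22 for Slc2a1 and 7.20 to 14.1 for Pygm.

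The replicate numbers do not pair the mice: same-numbered libraries of the genotypes deviated together with a mean r of −0.00111, and 2 of the 4 WT libraries correlated best with their own number. With the number as a block, 2557 genes passed, and again 1 of the 10 was higher and 3 lower, while Slc2a1 lost its call (adjusted p = 0.0831). Depth limits Pgk1, with 8 to 27 counts per library, Slc2a1, and the genes too scarce to test.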
